A study of Mus musculus with 6 samples.

Results

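The genes described here are 10 genes of the lipid droplet of muscle: the droplet coat genes Plin2, Plin3, Plin4 and Plin5, the lipolysis genes Pnpla2, Abhd5, G0s2 and Mgll, and the triglyceride synthesis genes Dgat1 and Dgat2. They were taken by gene symbol, by a rule that uses no measured value, though the 10 were chosen with earlier results of these data known. Each symbol stood on 1 row of the deposited table, so 10 of 23314 rows were taken, and 10 of 10 were among the 11607 genes with a mean of at least 1 FPKM that were tested. RNA sequencing measured transcripts of whole quadriceps, a large thigh muscle that extends the knee, in 3 K15SKO and 3 MyoCre libraries from mice of 2 months of age. K15SKO mice had the genotype Myogenin-Cre/+;K15F/F, in which Cre recombinase driven by the muscle differentiation gene Myogenin acts on floxed Klf15. MyoCre mice had the genotype Myogenin-Cre/+ with no floxed Klf15 in their label, so both groups carried 1 copy of the same Cre. Cells of the muscle in which Myogenin is not switched on, such as fat cells and macrophages, are not targets of this Cre. The design text speaks of n = 4, and 3 libraries a group were used here. Whether each library is a different mouse is not stated, so the p-values rest on the spread between libraries, which may be technical. The sex and strain of the mice were not among the labels.

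A lipid droplet is a store of triglyceride wrapped in a single phospholipid layer and a coat of proteins, of which the perilipins are the best known. In muscle fibres droplets lie close to mitochondria and supply fatty acids for oxidation. Adipose triglyceride lipase, the product of Pnpla2, takes the first fatty acid off a triglyceride; the Abhd5 protein, also called CGI-58, activates it, and the G0s2 protein inhibits it. Hormone-sensitive lipase acts next, and monoacylglycerol lipase, the product of Mgll, releases the last fatty acid. The acyltransferases Dgat1 and Dgat2 carry out the final step of triglyceride synthesis. Klf15 encodes a zinc-finger transcription factor of the Krüppel-like family, whose members bind GC-rich and CACCC elements.

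The sequences before the starts of the 4 lipolysis genes are shown because these genes form one enzymatic chain with its activator and its inhibitor, and their levels are compared below. Each is the 250 bases before the RefSeq start on GRCm38.p6, in lower case, with CACCC and its reverse complement GGGTG, searched on both strands, in capitals. The windows lie at chr7:141454938-141455187 on the plus strand for Pnpla2, chr9:122351366-122351615 on the plus strand for Abhd5, chr1:193273189-193273438 on the minus strand for G0s2 and chr6:88724162-88724411 on the plus strand for Mgll.
Pnpla2: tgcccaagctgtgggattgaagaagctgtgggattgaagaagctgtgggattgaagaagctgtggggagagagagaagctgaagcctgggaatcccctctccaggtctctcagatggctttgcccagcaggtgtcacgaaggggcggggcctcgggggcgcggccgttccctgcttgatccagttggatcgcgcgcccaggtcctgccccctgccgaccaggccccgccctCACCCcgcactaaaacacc
Abhd5: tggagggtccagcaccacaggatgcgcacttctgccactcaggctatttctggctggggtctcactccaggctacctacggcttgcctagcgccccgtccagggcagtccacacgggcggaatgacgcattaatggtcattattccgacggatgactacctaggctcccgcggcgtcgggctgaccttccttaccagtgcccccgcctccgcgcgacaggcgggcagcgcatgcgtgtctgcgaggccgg
G0s2: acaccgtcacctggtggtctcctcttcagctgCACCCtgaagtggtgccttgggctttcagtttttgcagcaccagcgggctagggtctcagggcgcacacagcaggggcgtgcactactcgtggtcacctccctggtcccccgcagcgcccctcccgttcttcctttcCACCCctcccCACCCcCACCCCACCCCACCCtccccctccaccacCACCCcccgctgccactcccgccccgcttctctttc
Mgll: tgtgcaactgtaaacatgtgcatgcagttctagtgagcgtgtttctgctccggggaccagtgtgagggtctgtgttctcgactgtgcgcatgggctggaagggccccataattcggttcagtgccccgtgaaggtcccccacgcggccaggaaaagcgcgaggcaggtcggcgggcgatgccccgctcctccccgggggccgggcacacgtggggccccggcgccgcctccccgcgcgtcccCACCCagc
The G0s2 window held 7 matches, between 218 and 36 bases before the start. The Pnpla2 window held 1 match, 19 bases before the start, and the Mgll window 1 match, 8 bases before it, and the Abhd5 window held 0. Of 32851 windows of the same length in the RefSeq table, 52% held at least 1 match and 0.0974% held at least 7. A match is a run of letters and not a bound site. Of the 10 genes, 8 had a window in that table.

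The 6 libraries differed in ways that touch these genes. Klf15 stood at 2.22, 21.7 and 5.32 FPKM in K15SKO libraries 1 to 3, against 35.2, 28.4 and 30.5 FPKM in MyoCre 1 to 3, so K15SKO 2 kept 69.3% of the MyoCre mean. Its log2 difference was −2.06 (SE 0.66, limma adjusted p = 0.273). Depth relative to MyoCre 1, read from the steps between low values, was 0.779 to 1.57 in K15SKO and 1 to 1.33 in MyoCre; read totals are unknown. Of 10 muscle fibre markers, among them Des, Mb and Actn3, 0 were listed at 0 in any library; their summed level was 11683 to 20894 FPKM in K15SKO and 15483 to 18697 FPKM in MyoCre. The 15 liver markers summed to 82.8, 6811 and 20.4 FPKM in K15SKO libraries 1 to 3, against 28.2 to 69.4 FPKM in MyoCre. They were above every MyoCre library in 14, 15 and 13 of 15 genes in K15SKO 1 to 3. Of all genes tested, 37.2%, 33.4% and 36.1% were. All 3 K15SKO libraries thus held more transcript of most liver markers, and K15SKO 2 by far the most. Most of the MyoCre sum was Cyp2e1, at 26.7 to 68.2 FPKM there; the other 14 markers summed to 77.9, 6485 and 14.0 FPKM in K15SKO libraries 1 to 3, against 1.199 to 4.88 FPKM in MyoCre. The part of these transcripts in the droplet gene values was not tested. Of the 15, 0 were listed at 0 in K15SKO, and 1, 5 and 3 in MyoCre 1 to 3. In bulk tissue, fewer cells of a type and less RNA per cell cannot be told apart.

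None of the 10 genes differed between K15SKO and MyoCre past the threshold of limma, fitted across all 11607 genes on log2(FPKM + 1) with Benjamini-Hochberg adjustment; over all genes tested 0.0517% passed, 0.0345% as lower and 0.0172% as higher in K15SKO. At an unadjusted p under 0.05, 2 of 10 were lower in K15SKO, Dgat1 and Mgll, where 8.12% of all genes were, and 0 were higher, where 8.43% of all genes were. The log2 difference was below 0 for 8 of 10, where 52% of all genes tested lay below 0. Its median over the 10 was −0.20, and −0.015 over all genes tested. With each library left out in turn, 6 to 9 of 10 lay below 0 and the median ran from −0.41 without MyoCre 3 and −0.37 without K15SKO 3 to −0.14 without MyoCre 1 and −0.11 without MyoCre 2. The count lower at an unadjusted p under 0.05 was then 0 without K15SKO 1 or K15SKO 2, 1 without MyoCre 1 or MyoCre 2, 3 without MyoCre 3 and 4 without K15SKO 3; 1 gene was higher without K15SKO 2 and 0 without any other library. The values of the 3 K15SKO libraries lay wholly below those of the 3 MyoCre libraries for 1 of 10, Dgat1, where 11.3% of all genes did so. They lay wholly above for 0 of 10, where 13.4% of all genes did so, and 24.7% of all genes did one or the other.

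**Figure D1:**
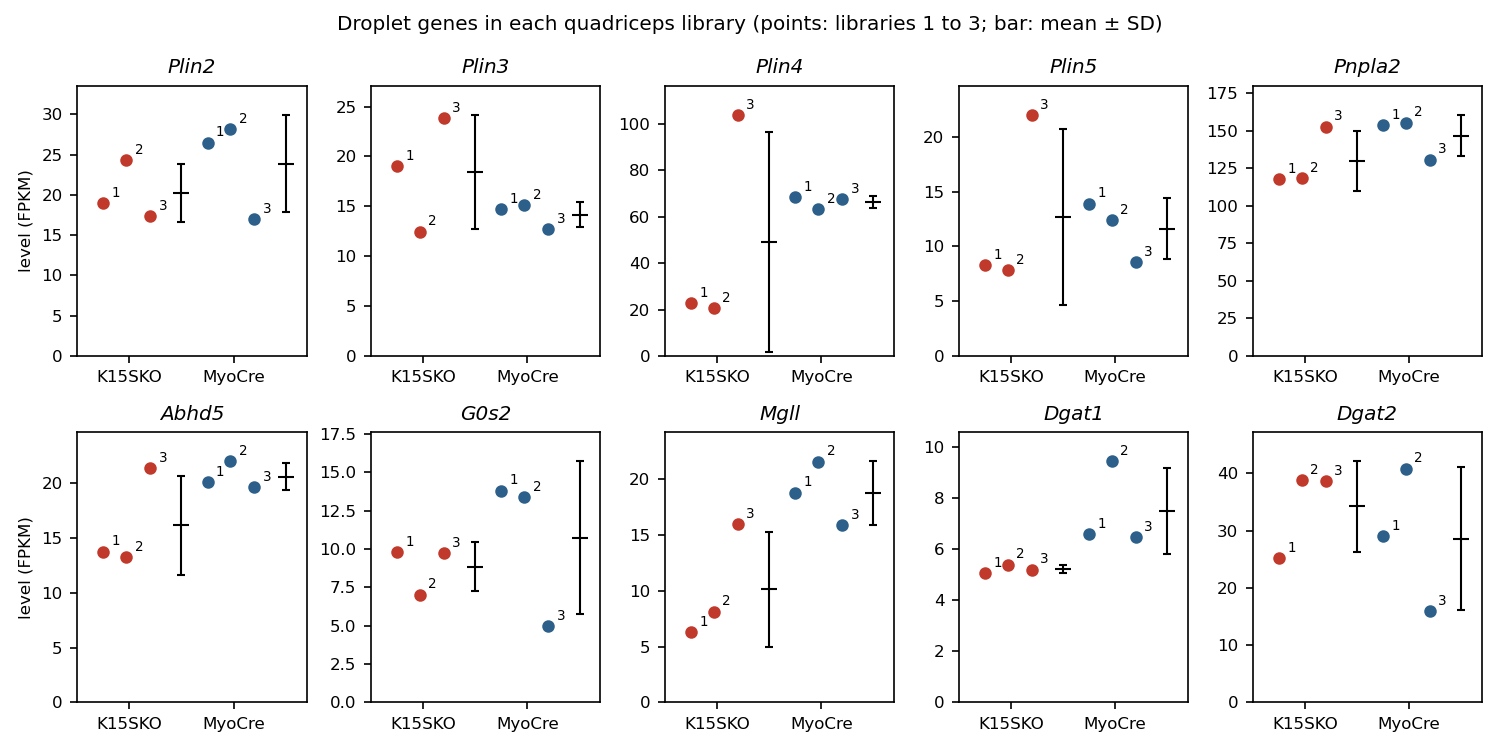
Level in FPKM (vertical axes, starting at 0) of each of the 10 droplet genes in K15SKO (red) and MyoCre (blue) libraries, with points numbered by library and a bar for the mean ± SD of 3. Points of K15SKO 1 and 2 lie below all MyoCre points for Plin4, Plin5, Pnpla2, Abhd5, Mgll and Dgat1, and K15SKO 3 does so for Dgat1 alone.

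Of the 10 genes, the coat genes Plin4 and Plin5 spread most among K15SKO libraries relative to their means. Plin4, whose protein coats small new droplets in fat and muscle, lies at chr17:56100591-56109803 on the minus strand (GENCODE M21, GRCm38). It was at 22.7, 20.6 and 104 FPKM in K15SKO libraries 1 to 3, against 68.5, 63.4 and 67.5 FPKM in MyoCre 1 to 3. K15SKO 1 and 2 were thus at 34.1% and 31.0% of the MyoCre mean and K15SKO 3 at 156%, on either side of a narrow MyoCre range. The log2 difference was −0.84 (SE 0.59, limma adjusted p = 0.446), and the 95% interval ran from −2.26 to 0.58. The end of Plin4 overlaps the end of Hdgfl2 on the other strand by 17 bases, and the labels do not state whether the counting used strand.

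Plin5 lies 1797 bases from Plin4, at chr17:56111601-56117596 on the same strand, and encodes the perilipin of oxidative tissues that ties droplets to mitochondria. It was at 8.29, 7.80 and 22.0 FPKM in K15SKO libraries 1 to 3, against 13.9, 12.4 and 8.53 FPKM in MyoCre 1 to 3. Here too K15SKO 1 and 2 were below every MyoCre library and K15SKO 3 above every one, but MyoCre 3 lay close to K15SKO 1. The difference averaged out at −0.01 (SE 0.39, limma adjusted p = 0.993), with a 95% interval of −0.96 to 0.94.

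Plin2, at chr4:86648386-86670060 on the minus strand, encodes the coat protein of droplets in most cells outside fat. It was at 18.9, 24.3 and 17.4 FPKM in K15SKO libraries 1 to 3, against 26.5, 28.2 and 17.0 FPKM in MyoCre 1 to 3. MyoCre 3 was the lowest of the 6 libraries, so the groups overlapped, and the log2 difference was −0.21 (SE 0.22, limma adjusted p = 0.588). Plin3, at chr17:56277476-56292873 on the minus strand, encodes a perilipin that moves between the cytosol and newly formed droplets. It was at 19.0, 12.5 and 23.9 FPKM in K15SKO libraries 1 to 3, against 14.7, 15.1 and 12.7 FPKM in MyoCre 1 to 3. K15SKO 1 and 3 were above every MyoCre library and K15SKO 2 just below every one, with a log2 difference of 0.32 (SE 0.23, limma adjusted p = 0.453).

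Since FPKM is scaled by transcript length, the levels of the 4 coat genes can be added within a library. Their sum was 68.9, 65.2 and 167 FPKM in K15SKO libraries 1 to 3, against 124, 119 and 106 FPKM in MyoCre 1 to 3. Without Plin4 the sum was 46.2, 44.5 and 63.3 FPKM in K15SKO libraries 1 to 3, against 55.1, 55.7 and 38.2 FPKM in MyoCre 1 to 3, so most of the low sums of K15SKO 1 and 2 lay in Plin4. The Plin4 share of the sum was 32.9%, 31.6% and 62.2% in K15SKO libraries 1 to 3, against 55.4%, 53.2% and 63.9% in MyoCre 1 to 3. The Plin5 share varied less, at 12.0%, 12.0% and 13.2% in K15SKO 1 to 3 and 11.2%, 10.4% and 8.07% in MyoCre 1 to 3. The Plin3 share was 27.6%, 19.1% and 14.3% in K15SKO 1 to 3 and 11.9% to 12.7% in MyoCre. The shares of Plin3 and Plin5 lay above the MyoCre range in 3 of 3 K15SKO libraries; a share of one coat gene is bound to be higher where another is lower, and no test was made of shares.

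**Figure D2:**
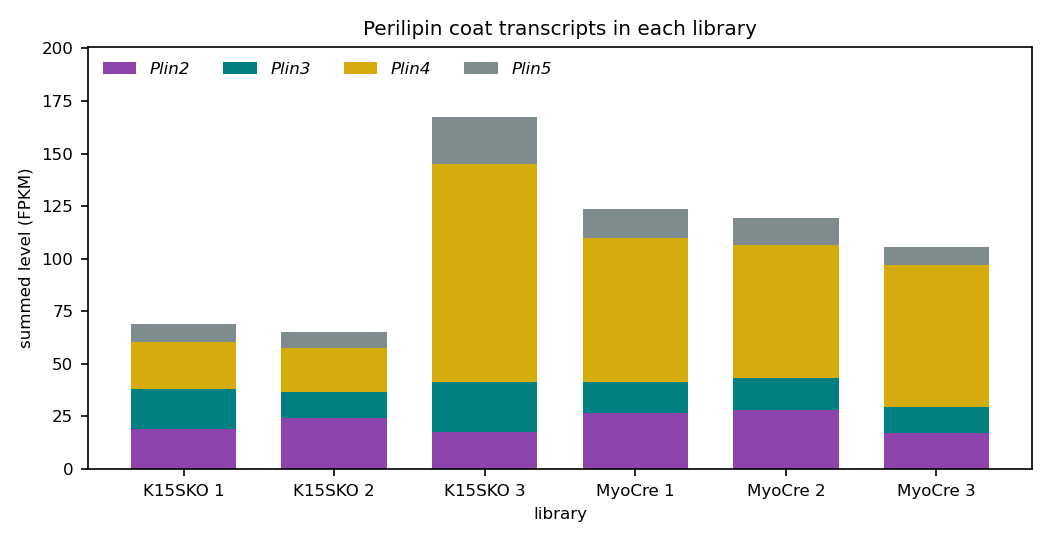
Levels of the 4 perilipin coat genes in FPKM (vertical axis, starting at 0), stacked for each K15SKO and MyoCre library. The sum is 68.9 and 65.2 FPKM in K15SKO 1 and 2, 167 FPKM in K15SKO 3 and 106 to 124 FPKM in MyoCre, and the Plin4 segment accounts for most of the range.

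Among the lipolysis genes, Pnpla2 was the most abundant transcript of the 10 in every library of both groups. The gene lies at chr7:141455198-141460743 on the plus strand. It was at 118, 119 and 153 FPKM in K15SKO libraries 1 to 3, against 154, 155 and 131 FPKM in MyoCre 1 to 3. K15SKO 1 and 2 were below every MyoCre library by a small margin and K15SKO 3 lay among them. The log2 difference was −0.18 (SE 0.15, limma adjusted p = 0.50), with a 95% interval of −0.55 to 0.18.

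Abhd5, the activator, lies at chr9:122351608-122381524 on the plus strand. It was at 13.8, 13.3 and 21.4 FPKM in K15SKO libraries 1 to 3, against 20.1, 22.0 and 19.7 FPKM in MyoCre 1 to 3. K15SKO 1 and 2 again stood below every MyoCre library and K15SKO 3 within the MyoCre range. The log2 difference was −0.36 (SE 0.19, limma adjusted p = 0.351). G0s2, the inhibitor, lies at chr1:193272161-193273217 on the minus strand, inside Lamb3 but clear of its exons, with MyoCre 3 well below the other MyoCre libraries. It was at 9.79, 7.02 and 9.75 FPKM in K15SKO libraries 1 to 3, against 13.8, 13.4 and 4.97 FPKM in MyoCre 1 to 3. Every K15SKO library lay inside the MyoCre range, with a log2 difference of −0.15 (SE 0.37, limma adjusted p = 0.819) and a 95% interval of −1.03 to 0.73.

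Mgll, which ends the lipolytic chain, lies at chr6:88724412-88828360 on the plus strand. It was at 6.30, 8.13 and 16.0 FPKM in K15SKO libraries 1 to 3, against 18.8, 21.5 and 15.8 FPKM in MyoCre 1 to 3. K15SKO 1 and 2 were at 33.7% and 43.4% of the MyoCre mean, and K15SKO 3 was just above MyoCre 3, so the groups touched. The log2 difference was −0.91 (SE 0.31, limma adjusted p = 0.279) at an unadjusted p of 0.0252, the largest of the 10 in size. The antisense genes that overlap exons of Abhd5 and Mgll, A730085K08Rik and Gm26588, averaged 0.0243 and 0.0449 FPKM.

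Set against Pnpla2 in the same library, Mgll was lower in K15SKO in 3 of 3 libraries. Its level was 5.34%, 6.85% and 10.5% of Pnpla2 in K15SKO libraries 1 to 3, against 12.2%, 13.8% and 12.1% in MyoCre 1 to 3. Abhd5 was at 11.7%, 11.2% and 14.0% of Pnpla2 in K15SKO libraries 1 to 3, against 13.1%, 14.2% and 15.04% in MyoCre 1 to 3, and these ranges overlapped. G0s2 was at 8.30%, 5.92% and 6.38% of Pnpla2 in K15SKO libraries 1 to 3, against 8.97%, 8.62% and 3.80% in MyoCre 1 to 3, so the balance of inhibitor and lipase transcripts overlapped between the groups. These ratios were not tested.

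**Figure D3:**
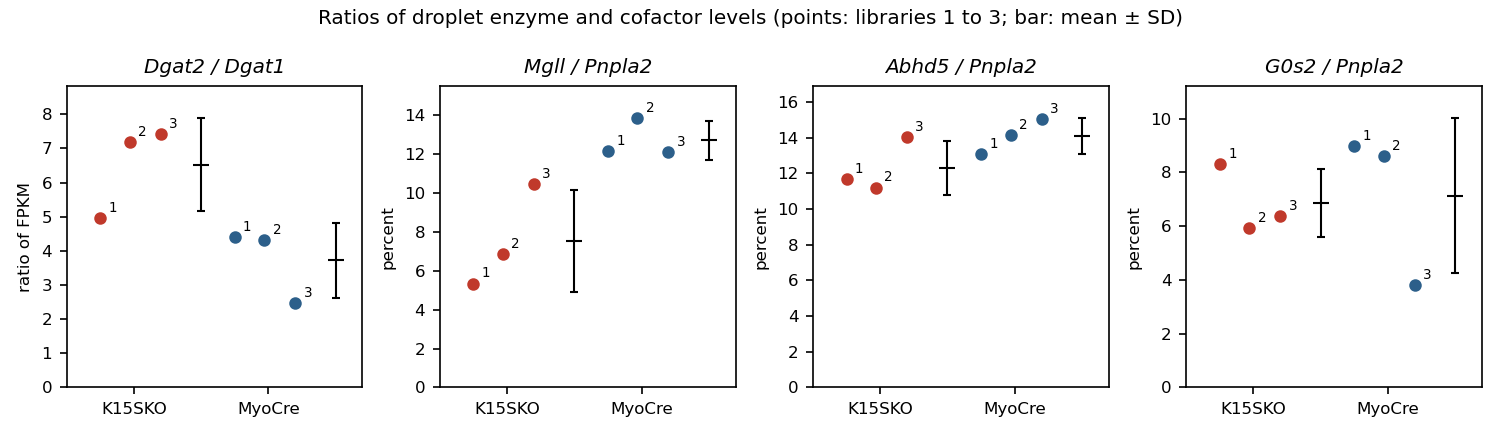
Ratios of transcript levels within each library (vertical axes starting at 0, as a ratio of FPKM for Dgat2 to Dgat1 and as percent of Pnpla2 for the others), with points numbered by library and a bar for the mean ± SD of 3 in K15SKO (red) and MyoCre (blue). The groups do not overlap for Dgat2 to Dgat1 (6.52 ± 1.36 in K15SKO and 3.73 ± 1.10 in MyoCre) or for Mgll to Pnpla2, and overlap for Abhd5 and G0s2 to Pnpla2.

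The acyltransferases of triglyceride synthesis differed from each other in pattern. Dgat1, at chr15:76502015-76511953 on the minus strand, encodes an enzyme of the endoplasmic reticulum that esterifies incoming fatty acids. It was at 5.06, 5.40 and 5.21 FPKM in K15SKO libraries 1 to 3, against 6.59, 9.45 and 6.49 FPKM in MyoCre 1 to 3. It was the gene of the 10 with the smallest unadjusted p and the single one whose groups did not overlap, lower in 3 of 3 K15SKO libraries. The log2 difference was −0.43 (SE 0.15, limma adjusted p = 0.279) with a 95% interval of −0.79 to −0.08. By exact permutation of the libraries, two-sided, p was 0.1, which is the lowest value possible with 3 libraries a group.

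Dgat2, at chr7:99153658-99182719 on the minus strand, encodes the acyltransferase tied to droplets and to newly made fatty acids. It was at 25.1, 38.8 and 38.7 FPKM in K15SKO libraries 1 to 3, against 29.0, 40.8 and 16.0 FPKM in MyoCre 1 to 3. The K15SKO libraries lay inside the wide MyoCre range, and the log2 difference was 0.32 (SE 0.35, limma adjusted p = 0.608), with a 95% interval of −0.52 to 1.16. The ratio of Dgat2 to Dgat1 was 4.96, 7.19 and 7.42 in K15SKO libraries 1 to 3, against 4.40, 4.32 and 2.46 in MyoCre 1 to 3. It was higher in 3 of 3 K15SKO libraries, though K15SKO 1 stood close to MyoCre 1 and 2.

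In the order of mean level, K15SKO ran Pnpla2, Plin4, Dgat2, Plin2, Plin3, Abhd5, Plin5, Mgll, G0s2 and Dgat1. MyoCre ran Pnpla2, Plin4, Dgat2, Plin2, Abhd5, Mgll, Plin3, Plin5, G0s2 and Dgat1. Pnpla2 stood apart from Plin4 in both groups, at 130 ± 19.9 against 49.1 ± 47.5 FPKM in K15SKO and 147 ± 13.9 against 66.5 ± 2.69 FPKM in MyoCre (SD, n = 3 each). In K15SKO the other neighbours whose ranges did not overlap were Dgat2 over Plin2 and G0s2 over Dgat1. In MyoCre they were Plin4 over Dgat2 and Mgll over Plin3. The remaining neighbours in each order overlapped. Mgll stood below Plin3 in 3 of 3 K15SKO libraries and above it in 3 of 3 MyoCre libraries.

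A pattern shared by 5 of the 10 genes was seen in the libraries rather than in the groups. Plin4, Plin5, Pnpla2, Abhd5 and Mgll were below every MyoCre library in K15SKO 1 and 2 and not below them in K15SKO 3, where 23.1% of all genes tested showed this. Counted by library, 6, 7 and 1 of the 10 genes were below every MyoCre library in K15SKO 1, 2 and 3, where 43.2%, 43.8% and 25.3% of all genes tested were. In turn 1, 0 and 3 of 10 were above every MyoCre library, where 37.2%, 33.4% and 36.1% of all genes were. Relative to the MyoCre mean, the median log2 deviation of the 10 genes was −0.36, −0.41 and 0.06 in K15SKO 1 to 3. The medians over all genes tested were −0.04, −0.06 and 0.03 in K15SKO 1 to 3. Klf15 itself was lowest in K15SKO 1 and highest in K15SKO 2. Among the K15SKO libraries, the 5 genes were highest in K15SKO 3, whereas Dgat1 and Dgat2 had the order of Klf15. The steps were small: Dgat1 was at 5.06, 5.40 and 5.21 FPKM in K15SKO 1 to 3. Dgat2 was at 38.8 and 38.7 FPKM in K15SKO 2 and 3. The share of all genes with this order was not counted, and K15SKO 2 was also the library with the most liver transcript. The part of the remaining Klf15 in the droplet gene values was not tested.

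Marker genes of cell and fibre types also differed among the K15SKO libraries, but those of slow fibres did not follow this split. Macrophage markers were above every MyoCre library in 9, 8 and 0 of 9 genes in K15SKO 1 to 3. Of all genes tested, 37.2%, 33.4% and 36.1% were. The macrophage markers summed to 339, 190 and 39.7 FPKM in K15SKO 1 to 3, against 43.0 to 52.0 FPKM in MyoCre. None of the 9 was listed at 0. For the 10 muscle fibre markers the same median deviation was −0.46, −0.51 and 0.36 in K15SKO 1 to 3. The split seen in 5 of the 10 droplet genes and in 23.1% of all genes tested was seen in 6 of these 10 markers. They did not all go one way: the glycogen phosphorylase gene Pygm was at 1365, 1670 and 3414 FPKM in K15SKO libraries 1 to 3 against 3242 to 3802 FPKM in MyoCre, while the intermediate filament gene Des was at 2376, 2018 and 1437 FPKM in K15SKO against 1005 to 1191 FPKM in MyoCre. Markers of slow fibres, which are rich in droplets, were above every MyoCre library in 8, 2 and 8 of 8 genes in K15SKO 1 to 3. The shares of all genes tested were again 37.2%, 33.4% and 36.1%. The slow fibre markers summed to 640, 154 and 1017 FPKM in K15SKO libraries 1 to 3, against 176, 269 and 32.9 FPKM in MyoCre 1 to 3. None of them was listed at 0. The part of macrophages and of fibre type in the droplet gene values was not tested.

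**Figure D4:**
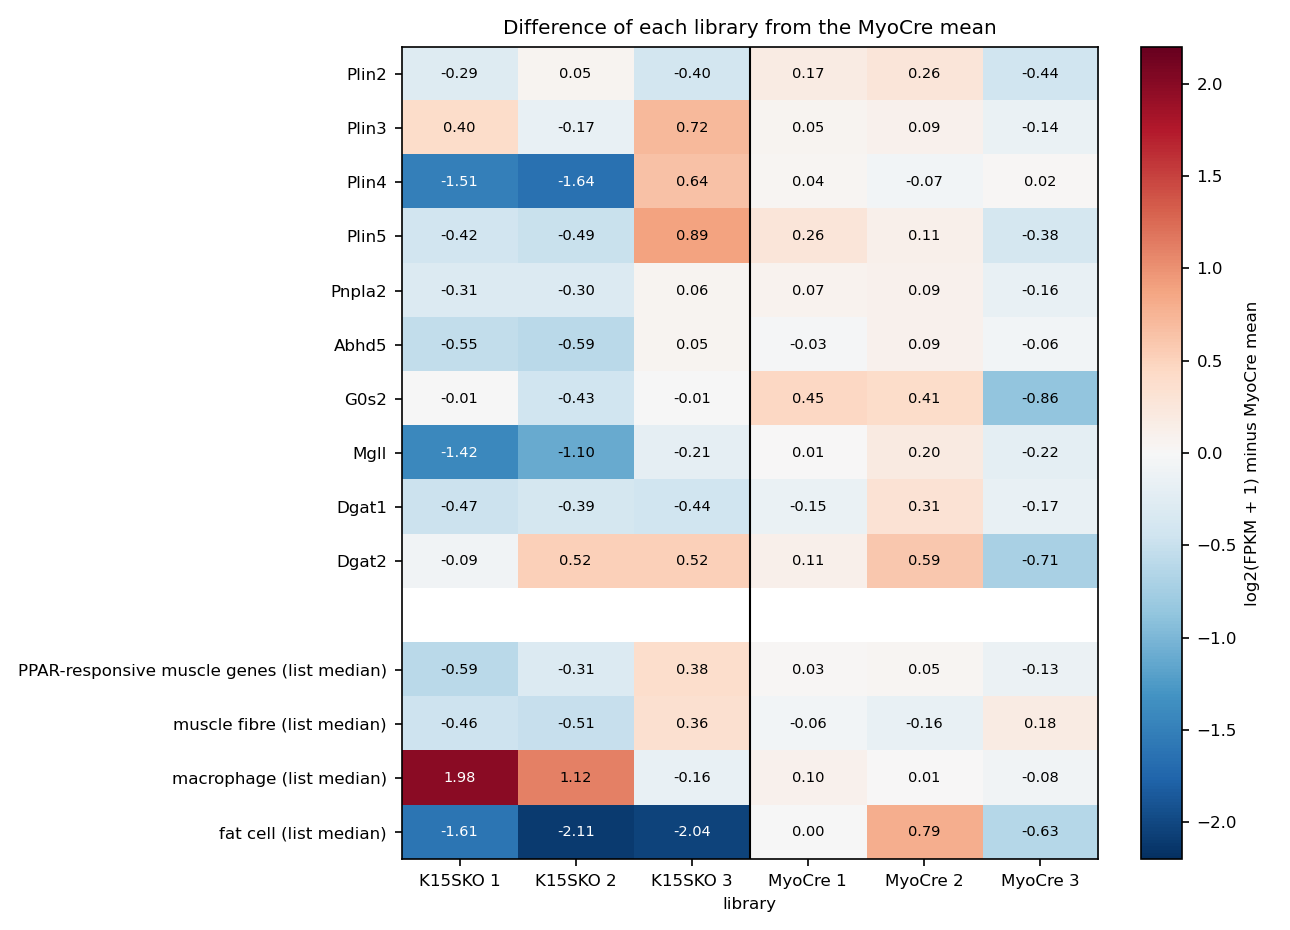
Difference of each library from the MyoCre mean on the log2(FPKM + 1) scale, as colour and number, for the 10 droplet genes and for the medians of 4 gene lists, with K15SKO libraries left of the black line and MyoCre libraries right of it. K15SKO 1 and 2 are low for Plin4 and Mgll, K15SKO 3 is high for Plin4 and Plin5, and the PPAR-responsive and macrophage lists split the K15SKO libraries in the same place, in opposite directions.

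Fat cells also carry these transcripts. Fat cell markers stood lower in K15SKO, with 9 of 11 tested lower at an unadjusted p under 0.05, where 8.12% of all genes were. Of these markers, 0 passed the adjusted threshold of limma. Their summed level over 12 genes was 203, 171 and 253 FPKM in K15SKO libraries 1 to 3, against 646, 1150 and 441 FPKM in MyoCre 1 to 3. Of the 12, 10, 10 and 12 were below every MyoCre library in K15SKO 1 to 3. Of all genes tested, 43.2%, 43.8% and 25.3% were. None of the 12 markers was listed at 0. Among the MyoCre libraries MyoCre 3 held the least of them and MyoCre 2 the most. MyoCre 3 was also the lowest MyoCre library for 9 of the 10 droplet genes, all but Plin4, where 23.3% of all genes tested were lowest there. MyoCre 2 was the highest for 7 of the 10, where 30.9% of all genes were. The part of fat cells in the droplet gene values was not tested.

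K15SKO 3 set the width of the group for several genes. It held Klf15 at 17.0% of the MyoCre mean, whereas K15SKO 2 kept 69.3% and held the most liver transcript. The fit was repeated without K15SKO 3, which keeps K15SKO 2, although the labels give no ground to leave K15SKO 3 out. Then 3 of the 10 genes passed as lower in K15SKO and 0 as higher, where 12.8% and 10.8% of all 11607 genes did, 23.6% in either direction. Plin4 was lower by 1.58 on the log2 scale (a difference of −1.58, SE 0.09, limma adjusted p = 0.00225), Mgll by 1.26 (−1.26, SE 0.17, limma adjusted p = 0.0124) and Abhd5 by 0.57 (−0.57, SE 0.09, limma adjusted p = 0.0163), each in 2 of 2 remaining K15SKO libraries. Their adjusted p over 15 alternatives ran from 0.00225 to 0.780 for Plin4, from 0.0124 to 0.581 for Mgll and from 0.0163 to 0.644 for Abhd5. Each passed in 2 of the 15, the other being the fit with array weights, in which 9.94% of all genes passed as lower. Pnpla2 and Plin5 did not pass without K15SKO 3 (−0.30 and −0.46, limma adjusted p = 0.0913 and 0.155). Neither did Klf15 itself (−1.91, limma adjusted p = 0.135).

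**Figure D5:**
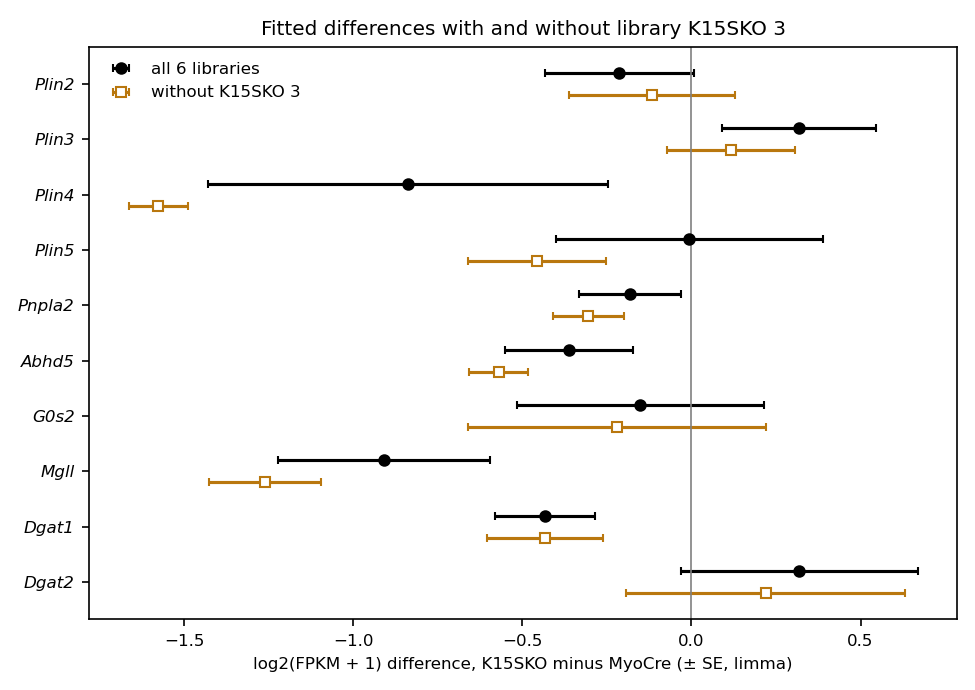
Fitted log2(FPKM + 1) difference of K15SKO minus MyoCre (horizontal axis, with the SE from limma as bars) for the 10 droplet genes, with all 6 libraries (black circles) and without K15SKO 3 (open squares). Leaving out K15SKO 3 takes Plin4 to −1.58, Mgll to −1.26 and Abhd5 to −0.57, and takes Plin5 to −0.46, against −0.01 with all libraries.

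Other genes of droplet biology were read from lists around the 10, and 0 of their tested members passed over all genes with limma. Over all genes tested the median log2 difference was −0.015, with 8.12% lower and 8.43% higher at an unadjusted p under 0.05. Glycerolipid synthesis genes had a median log2 difference of −0.03 over 11 tested members, with 1 lower and 1 higher at an unadjusted p under 0.05; 2 were lower and 2 higher without K15SKO 3, and 0 lower without K15SKO 1, K15SKO 2 or MyoCre 1. Agpat3, an acyltransferase of phosphatidic acid synthesis, was at 63.0, 58.0 and 50.3 FPKM in K15SKO libraries 1 to 3 against 44.0, 39.5 and 42.3 FPKM in MyoCre 1 to 3 (log2 difference 0.43, limma adjusted p = 0.272), above in 3 of 3 libraries. Lpin1, the phosphatidate phosphatase that makes diacylglycerol for the Dgat enzymes, was at 52.9, 57.7 and 107 FPKM in K15SKO libraries 1 to 3 against 121, 97.8 and 128 FPKM in MyoCre 1 to 3 (−0.73, limma adjusted p = 0.290). As for Plin4, K15SKO 1 and 2 were below every MyoCre library for Lpin1. K15SKO 3 lay within the MyoCre range for Lpin1, whereas for Plin4 it lay above that range. Agpat2, an isoform abundant in fat cells, was at 5.26, 9.49 and 5.46 FPKM in K15SKO against 20.7, 27.6 and 5.22 FPKM in MyoCre. Its order among the MyoCre libraries was that of the fat cell markers, and the part of fat cells in its level was not tested. Lpin3 was at 1.76 ± 0.632 FPKM in K15SKO and 0.966 ± 0.191 FPKM in MyoCre (SD, n = 3 each).

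Droplet assembly and surface genes had a median of −0.02 over 15 members, with 1 lower and 0 higher at an unadjusted p under 0.05; 4 were lower without K15SKO 3, 2 without K15SKO 2, and 0 without K15SKO 1, MyoCre 1 or MyoCre 3. Acsl3, which activates fatty acids on forming droplets, was at 9.06, 9.12 and 18.3 FPKM in K15SKO libraries 1 to 3 against 28.6, 17.2 and 22.2 FPKM in MyoCre 1 to 3 (−0.89, limma adjusted p = 0.279). Fitm2, a protein of the endoplasmic reticulum needed for droplets to bud, was at 37.3, 32.2 and 48.7 FPKM in K15SKO against 51.1, 53.9 and 46.8 FPKM in MyoCre (−0.37, limma adjusted p = 0.316). In both genes K15SKO 1 and 2 were below every MyoCre library and K15SKO 3 was not. Bscl2, the gene of seipin, which shapes the contact between droplet and endoplasmic reticulum, stood at 8.71 ± 1.44 FPKM in K15SKO and 10.9 ± 1.16 FPKM in MyoCre. Pcyt1a, of phosphatidylcholine synthesis, stood at 40.1 ± 7.01 FPKM in K15SKO and 47.4 ± 3.29 FPKM in MyoCre (SD, n = 3 each).

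The other lipase genes had a median of −0.39 over 11 members, with 4 lower and 0 higher at an unadjusted p under 0.05, and the median was −0.25 without K15SKO 1. The count lower was 7 without K15SKO 3, and 2 without K15SKO 1, MyoCre 1 or MyoCre 2. The K15SKO values lay wholly below those of MyoCre for 5 of 11, where 11.3% of all genes did so, and wholly above for 1, Abhd12, where 13.4% did so. Lipe, hormone-sensitive lipase, which acts between the products of Pnpla2 and Mgll, was at 5.44, 6.29 and 11.0 FPKM in K15SKO libraries 1 to 3 against 23.9, 34.7 and 15.2 FPKM in MyoCre 1 to 3 (−1.56, SE 0.35, limma adjusted p = 0.251). It is abundant in fat cells, and its order among the MyoCre libraries was that of the fat cell markers. The part of fat cells in the Lipe level was not tested. Pnpla3, a relative of Pnpla2, was at 0.624 ± 0.0965 FPKM in K15SKO and 1.99 ± 0.438 FPKM in MyoCre. Ddhd2 was at 3.61 ± 0.0452 FPKM in K15SKO and 4.66 ± 0.466 FPKM in MyoCre, and Ces1d at 18.8 ± 7.66 FPKM in K15SKO and 34.6 ± 10.1 FPKM in MyoCre (SD, n = 3 each). Adjusted p was 0.248, 0.279 and 0.294 for these 3 genes with limma.

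Of the 4 droplet protein genes of fat cells, 3 were lower and 0 higher at an unadjusted p under 0.05, with a list median of −2.53. The 3 lower genes, Plin1, Cidea and Cidec, are also among the fat cell markers counted above. Cidec and Plin1, which build the large droplet of the fat cell, were at 1.15, 1.34 and 2.39 FPKM and at 0.881, 0.804 and 1.15 FPKM in K15SKO libraries 1 to 3. They stood at 21.5, 45.1 and 9.27 FPKM and at 13.6, 26.2 and 5.12 FPKM in MyoCre 1 to 3 (limma adjusted p = 0.229 and 0.248). Cidea was at 0.803 to 1.81 FPKM in K15SKO and at 1.63 to 22.4 FPKM in MyoCre, where the groups overlapped. Cideb, a liver member of the family, was at 14.3 FPKM in K15SKO 2 and at most at 0.191 FPKM in the other 5 libraries. Liver also expresses Plin2 and Dgat2, which stood in K15SKO 2 at 24.3 and 38.8 FPKM. K15SKO 2 was the highest K15SKO library for both and lay within the MyoCre range. Among the other droplet genes, K15SKO 2 was the highest K15SKO library for Dgat1 and the lowest for Plin3, Plin4, Plin5, Abhd5 and G0s2. For Pnpla2 and Mgll it lay between K15SKO 1 and K15SKO 3. The part of liver transcripts in these values was not tested.

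PPAR nuclear receptors are known to switch on Plin2, Plin4 and Plin5 with genes of fatty acid oxidation. Of 14 tested PPAR-responsive muscle genes, 10 were below every MyoCre library in K15SKO 1 and 2 and not in K15SKO 3. Of all genes tested, 23.1% were. Plin4 and Plin5 had the same split. Plin2 did not: it was at 18.9, 24.3 and 17.4 FPKM in K15SKO libraries 1 to 3, against 17.0 to 28.2 FPKM in MyoCre. The list's median log2 difference was −0.19, with 1 lower and 1 higher at an unadjusted p under 0.05. That median was −0.0077 without K15SKO 1 and −0.45 without K15SKO 3, where 9 were lower and 1 higher, and 0 were lower without K15SKO 1, MyoCre 1 or MyoCre 3. The level of Pdk4, whose kinase holds back glucose oxidation, was 67.0, 129 and 749 FPKM in K15SKO libraries 1 to 3 against 567, 545 and 547 FPKM in MyoCre 1 to 3 (limma adjusted p = 0.355). Pdk4 was thus low in K15SKO 1 and 2 and above every MyoCre library in K15SKO 3, as Plin4 was. Ucp3, a mitochondrial carrier protein, was at 18.4, 39.2 and 124 FPKM in K15SKO against 158, 133 and 227 FPKM in MyoCre (−1.88, limma adjusted p = 0.279). Angptl4, an inhibitor of lipoprotein lipase, was at 0.651, 2.44 and 1.81 FPKM in K15SKO against 2.52, 3.96 and 2.62 FPKM in MyoCre. Fabp3, which carries fatty acids in the muscle cytosol, was higher in 3 of 3 K15SKO libraries, at 343 ± 48.5 FPKM in K15SKO and 194 ± 18.8 FPKM in MyoCre (SD, n = 3 each, limma adjusted p = 0.248).

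Genes that carry the beta-adrenergic signal for lipolysis had a median of −0.42 over 10 tested members, with 3 lower and 1 higher at an unadjusted p under 0.05. With each library left out, 1 to 4 were lower, 1 without K15SKO 1 or MyoCre 2 and 4 without K15SKO 3. Prkaca, a catalytic subunit of protein kinase A, was at 93.9, 88.4 and 75.3 FPKM in K15SKO libraries 1 to 3 against 65.3, 63.7 and 68.4 FPKM in MyoCre 1 to 3 (0.37, limma adjusted p = 0.275). Pde4d, which breaks down cAMP, was at 16.6, 20.2 and 54.7 FPKM in K15SKO against 58.0, 59.5 and 64.5 FPKM in MyoCre (−1.16, limma adjusted p = 0.283). Neither gene overlapped between the groups. Adcy9, an adenylyl cyclase, was at 6.99, 7.15 and 12.5 FPKM in K15SKO against 13.5, 11.8 and 14.4 FPKM in MyoCre. Adrb3, the receptor of fat cells and also one of the fat cell markers above, was at 0.407 ± 0.391 FPKM in K15SKO and 3.32 ± 1.96 FPKM in MyoCre (SD, n = 3 each).

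Of all genes tested, those whose levels ran most like Dgat1 over the 6 libraries, by Pearson r on log2(FPKM + 1), were Rnf139 (r = 0.994), Ormdl3 (0.990) and Arxes2 (0.987). Rnf139 was at 16.9, 17.5 and 17.5 FPKM in K15SKO libraries 1 to 3 against 19.0, 23.2 and 18.9 FPKM in MyoCre 1 to 3. Ormdl3 was at 22.1, 23.3 and 23.4 FPKM in K15SKO against 26.4, 32.7 and 27.1 FPKM in MyoCre. Arxes2 was at 0.0442, 0.196 and 0.349 FPKM in K15SKO against 2.44, 8.67 and 1.94 FPKM in MyoCre. Dgat1 and all 3 genes were highest in MyoCre 2, a likeness that choosing by r with Dgat1 favours in advance. The part of fat cells in their levels was not tested. With 6 libraries, 37 genes reached an r above 0.95, and the libraries share their depth and cell makeup across genes, so the likeness is a description.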

How the data were processed

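Per the labels' protocols, RNA was isolated from lysates with a Roche kit and sequenced from Illumina libraries. The submitters' processing notes name STAR, Cufflinks, Cuffdiff and mm10, with versions, strandedness and annotation not given in the sources used here. What the authors deposited are FPKM values, levels scaled by transcript length and by mapped fragments, for 23314 genes in 6 libraries. The table names no unit, and FPKM was inferred from Cufflinks and from the range of values. No counts are kept, so no counting interval is given. Columns were matched by sample description, and 0 columns belonged to no sample.

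The test was limma 3.58.1 (R 4.3.3), lmFit with trended eBayes, on log2(FPKM + 1) of the 11607 genes whose mean reached 1 FPKM. Its p-values are two-sided and adjusted after Benjamini and Hochberg over all 11607, with a threshold of 0.05. Fold changes of low genes come out too small on this scale. The script was tested on simulated data. An exact two-sided permutation test was run for single genes. Coordinates are from GENCODE M21 (GRCm38, which is mm10): 7 of the 10 genes matched with their ID version and 3, Plin3, Abhd5 and Dgat1, without it. Relative depth came from values under 0.1 FPKM. Promoter sequences are RefSeq's on GRCm38.p6. Python 3.11.15 was used with scipy 1.17.1, pandas 2.3.3, matplotlib 3.10.9 and numpy 2.4.6.

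The 10 genes and all lists were chosen with earlier results of these data known. Planned ratios were those of G0s2 and Abhd5 to Pnpla2, of Dgat2 to Dgat1, and the Plin5 share. The ratio of Mgll to Pnpla2 and the shares of the other coat genes were not among them. The text names the 10 genes, Klf15, up to 4 genes per list by the smallest unadjusted p and the 3 genes most like the member with the smallest p; marker genes, Cideb, Cyp2e1 and Abhd12 and the pattern shared by 5 genes were chosen after their values were seen. The 15 alternatives left out each library in turn, blocked on replicate number, weighted the arrays, dropped the eBayes trend, rescaled by median of ratios or by quantiles, filtered at 5 FPKM or not at all, and used a pseudocount of 0.5 or 0.1.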

Additional observations from a re-analysis of the deposited data

How the results depend on the processing

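With all 6 libraries, 6 of 11607 genes and 0 of the 10 droplet genes passed with limma. The count over all genes was 3 with no filter, 3 with the replicate block and 2398 with array weights, and 3 to 2743 with each library left out (2743 without K15SKO 3, 3 without MyoCre 1 and 3 without MyoCre 2). The count of droplet genes was 3 with array weights, and 0 to 3 with each library left out (3 without K15SKO 3). It was 0 under the other 13 alternatives. Plin4, Abhd5 and Mgll were the 3 genes both times; with array weights their log2 differences were −1.42, −0.53 and −1.14. Of 165 log2 differences of the 10 genes and Klf15 under 15 alternatives, 152 kept their direction and side of the threshold and 7 changed direction with a library left out. Plin5 ranged from −0.46 without K15SKO 3 up to 0.24, and was above 0 at 0.20 without K15SKO 1, 0.24 without K15SKO 2, 0.13 without MyoCre 1 and 0.05 without MyoCre 2. G0s2 ranged from −0.581 without MyoCre 3 to 0.0744 without MyoCre 1, and was at 0.0535 without MyoCre 2. Dgat2 ranged from −0.0354 without MyoCre 3 to 0.615 without MyoCre 2. None of the 7 passed, and the cause was not tested. With each library left out, the median log2 difference ran from −0.45 to −0.0077 for PPAR-responsive genes, from −0.06 to 0.03 for glycerolipid synthesis genes, which lay above 0 without K15SKO 1, and from −0.10 to −0.02 for droplet assembly and surface genes. At a mean of at least 5 FPKM it was −0.16 for droplet assembly and surface genes and −0.18 for beta-adrenergic genes, and with array weights −0.33 for PPAR-responsive genes. The labels do not say that the replicate numbers pair the libraries, and the deviations of same-numbered libraries from their group means correlated across genes at 0.0024, 0.0851 and 0.0942. The replicate block therefore compares libraries that share a number alone; it changed the call of 0 of the 10 genes. Read totals are unknown, so depth cannot be set beside single values.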
